A study of Mus musculus with 9 samples.

Results

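The ADAM genes encode membrane proteins with a disintegrin and a metalloprotease domain, and many of them are made in developing sperm and displayed on the sperm surface. All genes annotated as protein coding whose symbol is Adam followed by a number, with or without a letter, were taken from the deposited table. The rule found 31 genes among 38674 rows, of which 21019 were protein coding. The samples were testes of 9 male C57BL/6 mice, with 3 animals of the genotype Pfn3+/+ (WT), 3 of Pfn3+/- (Het) and 3 of Pfn3-/- (KO). In the Het and KO animals, profilin 3, an actin-binding protein of spermatids, was disrupted with CRISPR/Cas9. The guides cut inside the only Pfn3 exon, and several deletion lines were bred onto C57BL/6. The study used sexually mature males of a few months of age, while the line, the exact age and whether litters were shared among these 9 animals are not given in the sources used here. RNA of the whole testis without its capsule was sequenced from transcript 3′ ends (QuantSeq), and each value below is a normalized value, the gene's read count divided by 1 size factor per animal.

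In the testis, ADAM proteins are made as precursors with a prodomain in spermatocytes and spermatids. They fold in the endoplasmic reticulum with germ-cell chaperones, pair with each other, and are trimmed by proprotein convertases in the testis or the epididymis. ADAM1 and ADAM2 form fertilin. ADAM3 is needed for sperm to enter the oviduct and bind the zona pellucida, and it is lost from sperm when several of its chaperones and partners are missing. Other members, such as ADAM10 and ADAM17, are active sheddases of somatic tissues that release growth factors, cytokines and Notch fragments from the cell surface. The 31 genes were described in 3 groups by their known sites of expression, with 18 in a testis group, 2 (Adam7 and Adam28) in an epididymis group and 11 in a somatic group.

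The testis group is clustered in the genome (GRCm38). On chromosome 8, 12 of the 31 genes were found, and 11 of these belong to the testis group. Adam18, Adam3, Adam5 and Adam32 follow each other on the minus strand between chr8:24602246-24948804, with Adam9 of the somatic group directly beyond them. Adam24, Adam25, Adam20 and Adam39 lie between chr8:40675077-40827037 on the plus strand, and Adam26b and Adam26a between chr8:43519762-43576707 on the minus strand. Adam6b (chr12:113489511-113492057) and Adam6a (chr12:113543908-113546465) are neighbours on chromosome 12, as are Adam4 and Adam21 (chr12:81419443-81568474). In the annotated transcripts, 13 of the 18 testis group genes carry their whole coding sequence in 1 exon, against 0 of the 11 somatic group genes, whose coding sequences are split into 16 to 29 exons. The exceptions among the testis group are Adam2, Adam3, Adam5, Adam18 and Adam32, with 19 to 22 coding exons.

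An ADAM can act as a protease only with an intact zinc site, in which 3 histidines hold the zinc and the glutamate beside the first histidine carries out the cleavage. The 33 bases that encode this site aligned without a gap in all 31 genes. They are shown for 9 members, 5′ to 3′ on the coding strand and read from GENCODE transcripts on GRCm38. The most abundant sperm ADAMs lack the intact site that the proteases of the family keep, as do less abundant members such as Adam29. Capitals mark the codons at the 5 key positions (the 3 histidines, the glutamate and a glycine).
Adam10: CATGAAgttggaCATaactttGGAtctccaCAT
Adam1b: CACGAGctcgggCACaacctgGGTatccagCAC
Adam20: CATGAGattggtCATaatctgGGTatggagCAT
Adam24: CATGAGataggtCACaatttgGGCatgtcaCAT
Adam2: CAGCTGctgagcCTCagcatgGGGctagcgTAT
Adam3: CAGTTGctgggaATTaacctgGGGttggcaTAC
Adam5: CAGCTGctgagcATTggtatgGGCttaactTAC
Adam6a: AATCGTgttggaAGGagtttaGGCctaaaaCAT
Adam29: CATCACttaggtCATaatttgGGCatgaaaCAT
All 5 codons were kept in 18 of the 31 genes, including Adam10, Adam1b, Adam20 and Adam24 above. The other 13 lacked at least 1 of them. Adam2, Adam3, Adam5, Adam18 and Adam32 kept 1 of the 5, the glycine, and 0 of the 3 histidines. Adam29, Adam4 and Adam7 kept the 3 histidine codons and lacked the glutamate codon. Of the 18 testis group genes 9 lacked an intact site, against 3 of the 11 somatic group genes (Adam11, Adam22 and Adam23, the ADAMs that serve as receptors in the nervous system).

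The regions before the transcription start also differed between the groups, as far as windows were found. RefSeq windows of GRCm38.p6, from 250 bases before to 50 bases after the start, were found for 15 of the 31 genes (17 windows). The 8 windows of testis group genes held 0 to 2 CpG dinucleotides (median 1) and a median GC content of 38.0%. These 8 genes all have 1 coding exon, and Adam2, Adam3, Adam5, Adam18 and Adam32 had no window. The 9 windows of 7 somatic group genes held 5 to 32 CpG (median 19) with a median GC content of 65.3%. Over all 32851 windows the medians were 7 CpG and 52.7%, and 23.3% of all windows held 2 CpG or fewer, as did the 8 testis group windows and 0 of the 9 somatic ones. The last 100 bases before the start are shown for 3 testis group genes, of which Adam20 and Adam25 are in the same cluster, and 2 somatic group genes, 5′ to 3′ on the gene's strand, with CpG in capitals.
Adam20 (chr8:40793173-40793272, plus strand): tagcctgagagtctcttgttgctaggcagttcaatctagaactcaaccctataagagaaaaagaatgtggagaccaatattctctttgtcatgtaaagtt
Adam25 (chr8:40752108-40752207, plus strand): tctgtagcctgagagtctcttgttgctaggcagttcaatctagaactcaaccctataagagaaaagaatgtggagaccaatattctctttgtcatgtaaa
Adam29 (chr8:55906965-55907064, minus strand): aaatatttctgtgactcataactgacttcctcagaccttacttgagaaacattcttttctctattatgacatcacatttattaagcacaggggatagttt
Adam10 (chr9:70678882-70678981, plus strand): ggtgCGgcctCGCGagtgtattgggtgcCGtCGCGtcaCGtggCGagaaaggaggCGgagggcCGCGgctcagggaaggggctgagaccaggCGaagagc
Adam15 (chr3:89350029-89350128, minus strand): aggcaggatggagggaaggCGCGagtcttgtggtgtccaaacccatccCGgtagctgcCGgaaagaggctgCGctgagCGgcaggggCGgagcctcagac
The stretches before Adam20 and Adam25 read almost alike and hold 0 CpG, as does that of Adam29, while those before Adam10 and Adam15 hold 12 and 7.

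In the WT testes the ADAM genes spanned a wide range of abundance, down to undetected genes. All 18 testis group genes were above the filter of 10 in at least 3 of the 9 animals, against 6 of the 11 somatic group genes and 0 of the 2 epididymis group genes, so that 24 of the 31 passed. Mean values in WT ran from 72.1 to 4203 in the testis group (median 150) and from 3.54 to 52.9 in the somatic group (median 11.2), and the lowest testis group mean lay above the highest somatic group mean. The groups were set by known sites of expression, so higher testis group values in testis follow from the grouping and are no test of it. Because each transcript gives reads from its 3′ end only, values were compared between genes without division by length. Adam5 was the most abundant (4203 ± 975 in WT, SD, n = 3), followed by Adam3 (1895 ± 249), Adam32 (1049 ± 450) and Adam2 (812 ± 215). The 6 most abundant genes, which also include Adam6a and Adam18, all lacked an intact zinc site. Testis group WT means ran from 74.6 to 4203 in the 9 genes without an intact site. They ran from 72.1 to 215 in the 9 genes with it. Within the testis group the 5 genes with many coding exons had WT means of 394 to 4203, and the 13 genes with 1 coding exon had WT means of 72.1 to 414.

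The order of the genes was firm only at a few steps. Of the 23 pairs of neighbours in that order, 18 had overlapping WT animals, and the 5 steps with no overlap were Adam5 above Adam3, Adam3 above Adam32, Adam18 above Adam1b, Adam29 above Adam6b, and Adam26a above Adam10. Together the 31 genes took 0.198% to 0.276% of the reads on genes in each animal, and Adam5 alone took 27.3% to 46.2% of the ADAM reads. Genes without an intact zinc site took 81.8% to 90.5% of them.

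**Figure D1:**
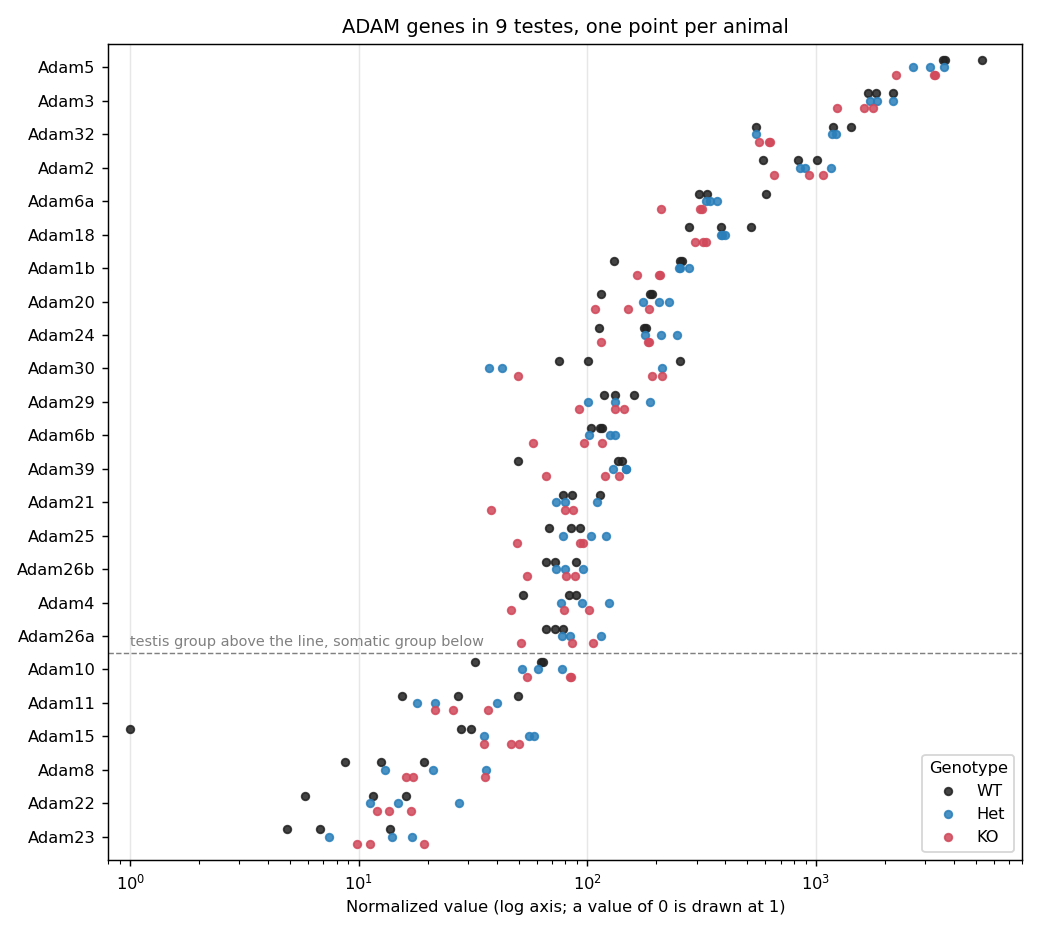
Normalized value of the 24 ADAM genes above the filter in each of the 9 testes (log axis, 1 point per animal, colours for genotype), ordered by the WT mean. The 18 testis group genes lie above the dashed line and the 6 somatic group genes below it, and the animals of the 3 genotypes overlap for most genes.

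Total reads on genes were 3375546 to 4287335 per animal, so that 3 reads, taken as the limit of detection for counting error only, correspond to 2.58 to 3.71 normalized reads. The library of WT animal 1 stood apart (median correlation with the other libraries over genes 0.778), followed by Het animal 1 (0.806), while the other 7 lay between 0.841 and 0.881. Some libraries were alike across genotypes. WT animals 2 and 3 and Het animal 2 correlated at 0.922 to 0.927 with each other. KO animal 1 correlated at 0.900 to 0.903 with them, and at 0.8475 and 0.8928 with KO animals 2 and 3. The cause was not tested. Pfn3 reads were 592, 383 and 373 in WT, 136, 339 and 326 in Het, and 74.7, 215 and 279 in KO. The KO and Het animals all lay below the lowest WT animal, while KO and Het overlapped, and the KO against WT log2 fold change was -1.41 (SE 0.52, adjusted p = 0.610 with limma). These reads come from the transcript's 3′ end, which a deletion in the coding sequence need not remove, so they do not check the loss of the protein.

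Many ADAM genes of the testis group were low or high in the same animals. KO animal 2 was the lowest of the 9 animals for 11 of the 18 genes and for 15.4% of all 14865 genes above the filter. Het animal 1 was the highest for 8 of the 18, against 16.8% of all genes. Relative to the mean of the 9 animals on the log2(value + 1) scale, the median of the 18 genes was -0.58 in KO animal 2 and 0.40 in Het animal 1, and between -0.11 and 0.19 in the other 7. WT animal 1 split the group, being the lowest WT animal for 10 genes (Adam2, Adam1b, Adam20, Adam24, Adam6b, Adam39, Adam25, Adam26b, Adam4 and Adam26a) and the highest for 6 (Adam5, Adam6a, Adam18, Adam30, Adam29 and Adam21). Such a split was near that of the whole library. Among the 9 animals it was the lowest for 4 of the 18 genes (22.2%) and for 28.6% of all genes. It was the highest for 5 of the 18 (27.8%) and for 25.5% of all genes.

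**Figure D2:**
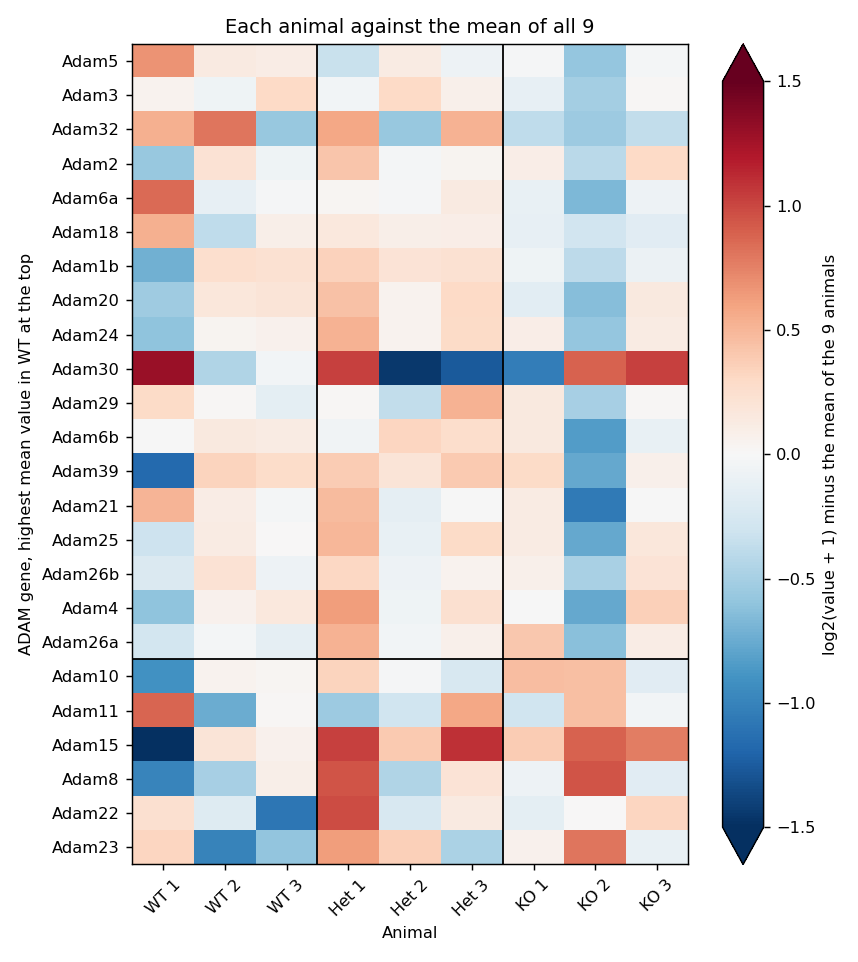
Difference of each animal from the mean of the 9 animals on the log2(value + 1) scale, for the 24 ADAM genes above the filter (rows, ordered by WT mean) and the 9 animals (columns). Blue cells fill most of the KO 2 column down to the line that closes the testis group, with a median of -0.58, and red cells fill most of the Het 1 column, with a median of 0.40.

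Germ-cell markers also differed in these animals, but not always in the direction of the ADAM genes. The summed value of 7 round spermatid markers (the acrosomal genes Acrv1, Acr and Spaca1, with Sun5, Tssk1, Tssk2 and Catsper1) was 8971, 7117 and 7105 in WT, 5359, 7252 and 6472 in Het, and 5500, 3548 and 5524 in KO, with KO animal 2 again the lowest. In KO against WT 6 of the 7 had a log2 fold change below 0, and 4 were lower at an unadjusted p under 0.05 (5.03% of all genes tested). The 6 spermatocyte markers summed to 4908 to 5580 in WT, 4622 to 7190 in Het and 6373 to 7254 in KO, with the 2 highest sums in KO animal 2 and Het animal 1. In KO against WT all 6 were above 0, and 2 were higher at that limit (3.04% of all genes tested). Het animal 1 had a low round spermatid sum and high ADAM genes, whereas KO animal 2 was low in both. In Het animal 1, Tssk1 (848), Tssk2 (1925), Sun5 (221) and Catsper1 (72.8) lay below all WT animals. Its Acrv1 (1081) and Acr (493) lay within the WT range, and its Spaca1 (718) lay above that range. In KO animal 2, Acr (509) and Spaca1 (384) also lay within the WT range. Sertoli cell markers summed to 4710 to 5113 in WT, 3741 to 5466 in Het and 3955 to 6966 in KO, with KO animal 2 the highest. Of these 9 markers, Wt1 was higher at that limit in KO against WT, and 0 were lower. In Het against WT Wt1 and Sox9 were higher at that limit (1.46% of all genes tested), and 0 were lower. Leydig cell markers summed to 2549 to 4447, 1777 to 2798 and 2282 to 3305. The 7 spermatogonia markers summed to 488 to 773 in WT, 727 to 1039 in Het and 814 to 935 in KO. Dazl alone made up the largest part of these sums, with 303 to 591 in WT, 513 to 911 in Het and 645 to 770 in KO. Of the 5 tested in KO against WT, Dazl was higher and Stra8 lower at that limit. In Het against WT Kit was higher at that limit, and 0 were lower. The 4 elongating spermatid markers summed to 233289 to 249362 in WT, 179063 to 214894 in Het and 123388 to 199672 in KO, and in KO against WT all 4 were below 0 and 2 (Tnp2 and Prm2) were lower at that limit. The same held in Het against WT, with all 4 below 0 and the same 2 lower at that limit (1.89% of all genes tested). No marker list had a defining gene at 0 in all animals except that of the epididymis. The part of cell composition in the ADAM values was not tested, and in whole testis fewer cells of a type and less RNA per cell cannot be told apart.

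Comparing KO with WT asks whether ADAM transcripts depend on profilin 3. With limma, 0 of the 24 tested ADAM genes were called (adjusted p under 0.05 with the log2 fold change beyond 1.5 up or down), where 0.0352% of the 14223 genes tested were called. At an unadjusted p under 0.05, 0 ADAM genes were higher (3.04% of all genes) and 0 lower (5.03%), and 0 passed that limit with edgeR or DESeq2 on the recovered reads. Adam5 was the only member with all KO animals below all WT animals (10.5% of all genes), and Adam15 the only member with all above (9.41%). The median log2 fold change was -0.03 over the 24 members and 0.02 over all genes, on the log2(value + 1) scale. In the testis group 13 of 18 had a log2 fold change below 0 (median -0.13), and in the somatic group 1 of 6 (median 0.60). This count moved with single animals. The testis group had 17 of 18 below 0 without KO animal 3 (median -0.27), 16 without WT animal 1 (median -0.23) or without KO animal 1 (median -0.21), and 8 without KO animal 2 (median 0.02). With CPM scaling (library totals) in place of the size factors it had 7 of 18 below 0 (median 0.07, where all genes shifted to a median of 0.22).

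**Figure D3:**
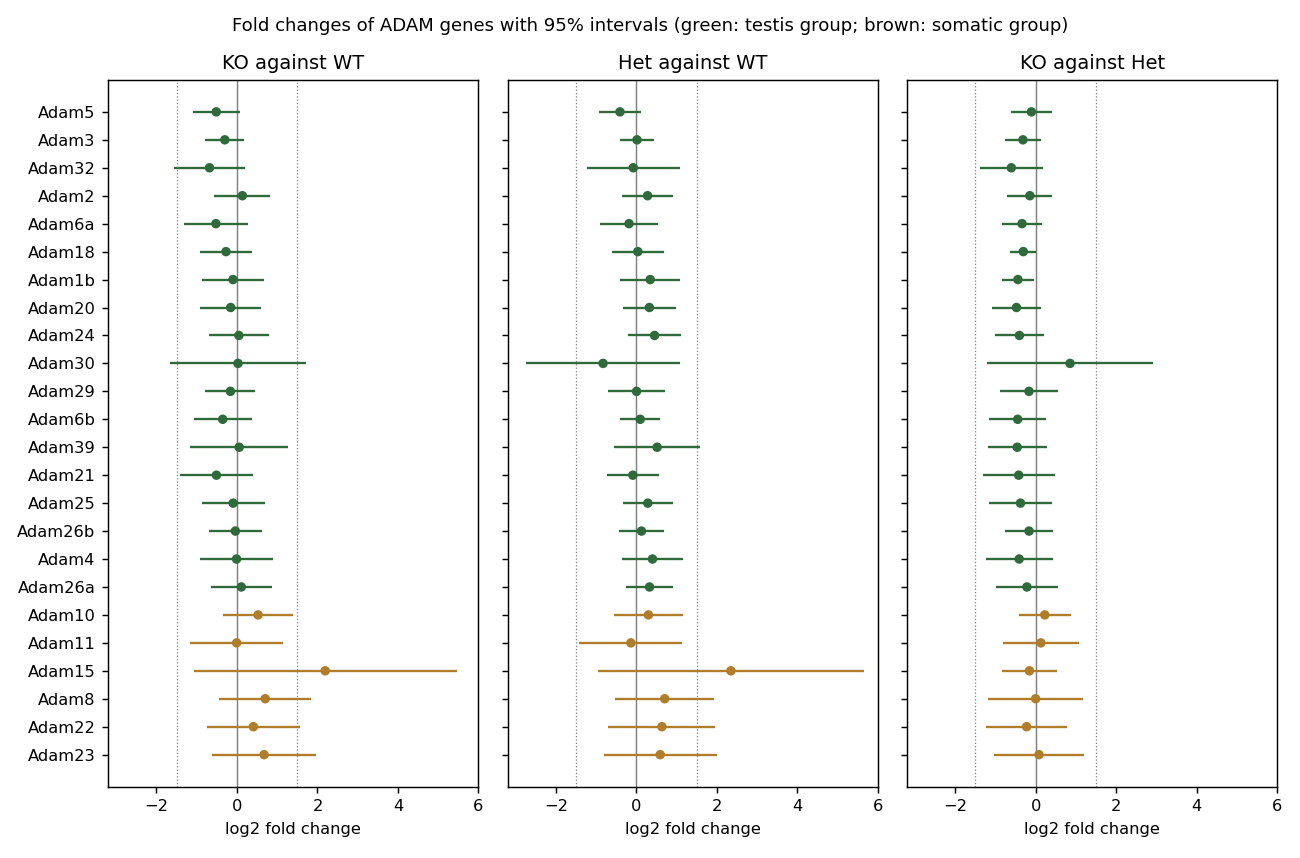
Fitted log2 fold change (points) with 95% intervals (lines) of the 24 ADAM genes in the 3 comparisons, green for the testis group and brown for the somatic group, with dotted lines at the cutoff of 1.5 in both directions. All intervals in KO against WT and Het against WT include 0, and in KO against Het that of Adam1b alone does not.

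The 3 genotypes are next described by the roles of the members. Adam5, whose protein joins ADAM2 and ADAM3 in complexes on the sperm surface, had 5329, 3675 and 3605 normalized reads in WT, 2644, 3624 and 3155 in Het, and 3303, 2233 and 3276 in KO. The 3 KO animals lay below the 3 WT animals, and the Het animals lay in both ranges. Its log2 fold change was -0.52 in KO against WT (SE 0.24, 95% interval -1.10 to 0.07, adjusted p = 0.613) and -0.41 in Het against WT (SE 0.22, adjusted p = 0.779). The first value was -0.33 without KO animal 2 or without WT animal 1 and -0.31 with CPM scaling, and the second was -0.22 without WT animal 1. Adam3, the zona-binding protein cyritestin, had 1822, 1690 and 2171 in WT, 1718, 2170 and 1854 in Het, and 1615, 1241 and 1779 in KO. Here KO animal 3 reached into the WT range and KO animals 1 and 2 were the lowest of the 9. The KO against WT log2 fold change of Adam3 was -0.30 (SE 0.20, 95% interval -0.79 to 0.18, adjusted p = 0.643). It was -0.15 without KO animal 2, -0.20 without WT animal 3 and -0.10 with CPM scaling.

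Of the fertilin genes, Adam2, fertilin beta, had 586, 1014 and 835 in WT, 1166, 851 and 893 in Het, and 934, 656 and 1068 in KO, and the 3 groups overlapped. Its KO against WT log2 fold change was 0.13 (SE 0.29, 95% interval -0.57 to 0.83, adjusted p = 0.859). Adam1b, a fertilin alpha gene that keeps an intact zinc site, had 131, 259 and 255 in WT, 277, 251 and 255 in Het, and 208, 165 and 205 in KO. Apart from WT animal 1, the lowest of all, every WT and Het animal lay above every KO animal. The KO against WT log2 fold change of Adam1b was -0.10 (SE 0.32, 95% interval -0.87 to 0.67, adjusted p = 0.912) and -0.42 without WT animal 1.

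Adam6a, an intronless sperm ADAM that lies in the immunoglobulin heavy chain locus, had 603, 307 and 332 in WT, 343, 332 and 369 in Het, and 310, 209 and 318 in KO. WT animal 1 stood far above the other WT animals, which overlapped the KO animals. The log2 fold change was -0.52 in KO against WT (SE 0.33, adjusted p = 0.641) and -0.22 without WT animal 1. Its neighbour Adam6b had 104, 116 and 114 in WT, 101, 131 and 126 in Het, and 116, 58.0 and 96.5 in KO, with 8.87% of the 50-base words in its last 500 bases shared with Adam6a, so reads of the pair may be split between them. Adam18, a testis ADAM beside Adam3 on chromosome 8, had 521, 278 and 383 in WT, 402, 384 and 388 in Het, and 332, 295 and 321 in KO. The Het animals (SD 9.27, n = 3) were all above the KO animals, while the WT animals covered both. Its KO against WT log2 fold change was -0.27 (SE 0.26, 95% interval -0.91 to 0.37, adjusted p = 0.692), and it ranged from -0.50 without WT animal 2 to -0.05 without WT animal 1, with -0.07 under CPM scaling.

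The testases are single-exon ADAMs of chromosome 8 with intact zinc sites, among them Adam24, which encodes testase 1. Adam24 had 113, 177 and 181 in WT, 247, 179 and 210 in Het, and 184, 115 and 187 in KO. The highest values were in Het animals 1 and 3, and WT and KO overlapped, with a KO against WT log2 fold change of 0.05 (SE 0.31, adjusted p = 0.964). Adam20 had 115, 188 and 192 in WT, 228, 174 and 206 in Het, and 150, 107 and 186 in KO. The KO against WT log2 fold change of Adam20 was -0.16 (SE 0.32, adjusted p = 0.847). KO animal 2 and WT animal 1 were the lowest for both genes. Adam39, Adam25, Adam26a and Adam26b of the same clusters had WT means of 72.1 to 109, log2 fold changes of -0.10 to 0.11 in KO against WT, and KO animal 2 as the lowest animal in all but Adam39, where WT animal 1 (49.5) lay below it (65.8). Adam25 and Adam39 share 6.87% of such words, and Adam26a and Adam26b share 5.76% and 11.1% of theirs with each other or with further genes.

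Of the remaining single-exon genes, Adam29, Adam4 and Adam21 are given here and Adam30 with Adam32 below. Adam29 had 160, 132 and 118 in WT, 132, 101 and 188 in Het, and 145, 91.9 and 132 in KO. Adam4 had 52.0, 83.0 and 88.8, then 124, 76.4 and 94.2, then 79.0, 46.4 and 102, in the same order of groups. Adam21 had 114, 85.9 and 78.2, then 111, 72.6 and 79.4, then 86.7, 37.7 and 79.5. KO animal 2 was the lowest of the 9 for all 3 genes, and the genotypes overlapped in each, with KO against WT log2 fold changes of -0.16, -0.01 and -0.51 and adjusted p-values of 0.802, 0.994 and 0.648 with limma.

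Adam32 and Adam30 divided the animals into a high and a low set that crossed the genotypes. Adam32, another testis ADAM of the chromosome 8 cluster, had 1181, 1418 and 547 in WT, 1220, 548 and 1172 in Het, and 625, 560 and 632 in KO. All KO animals were in the low set, together with WT animal 3 and Het animal 2, and the log2 fold change was -0.68 in KO against WT (SE 0.37, 95% interval -1.58 to 0.21, adjusted p = 0.629) and -0.61 in KO against Het (SE 0.33, adjusted p = 0.973). Without WT animal 3 the KO against WT value was -1.10 at an unadjusted p under 0.05, and without WT animal 2 it was -0.41. Tm2d2 (chr8:25017211-25023260), the gene beyond Adam9 on the opposite strand, was looked at after these values were seen and had 7.43, 360 and 257 in WT, 12.3, 281 and 7.41 in Het, and 302, 371 and 289 in KO. Tm2d2 was near 0 in 3 of the 4 animals with high Adam32, but not in WT animal 2, where both were high. The sum of both genes was 1189, 1778 and 804 in WT, 1232, 829 and 1179 in Het, and 928, 932 and 920 in KO, so the 4 animals with high Adam32 still lay above the other 5. Both are counted on loci of a merged assembly, and whether reads were assigned differently between libraries was not tested.

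Adam30, a single-exon testis ADAM of chromosome 3 with an intact zinc site, had 254, 75.2 and 100 in WT, 212, 37.2 and 42.3 in Het, and 49.8, 192 and 211 in KO. WT animal 1, Het animal 1 and KO animals 2 and 3 were high, and the spread was the widest of the testis group, with a coefficient of variation of 67.5% in WT, 102% in Het and 58.3% in KO, against group medians of 25.3%, 15.8% and 24.6%. The log2 fold change was 0.02 in KO against WT (SE 0.70, adjusted p = 0.992), -0.83 in Het against WT (SE 0.79, adjusted p = 0.784) and 0.85 in KO against Het (SE 0.85, adjusted p = 0.973). These values depended on single animals, with Het against WT from -1.62 without Het animal 1 to -0.32 without WT animal 1, and KO against Het from 0.41 without Het animal 2 to 1.65 without Het animal 1. On the recovered reads Het against WT was -0.55 with DESeq2 and -0.52 with edgeR.

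**Figure D4:**
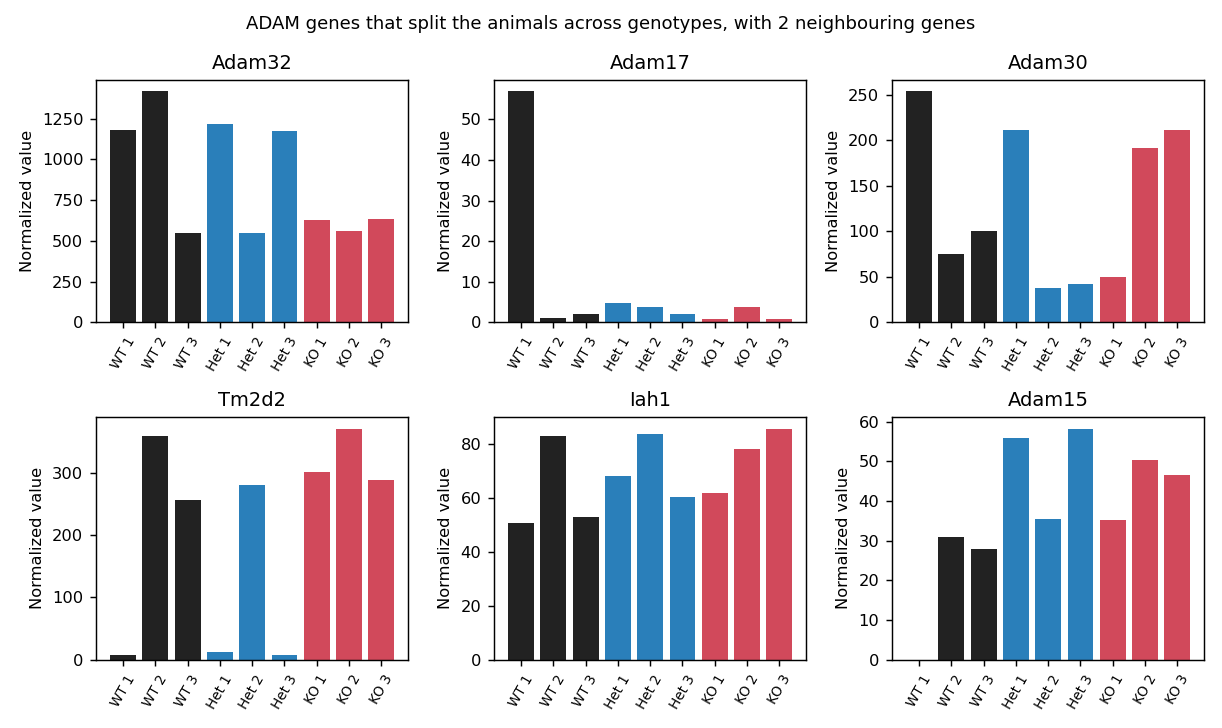
Normalized values by animal (bars from 0, coloured by genotype) of Adam32, Adam30, Adam17 and Adam15, of Tm2d2, which lies near Adam32, and of Iah1, which overlaps Adam17. Adam32 is at 547 to 632 in 5 animals and 1172 to 1418 in 4, Adam17 reaches 57.0 in WT 1 alone, and Adam15 is at 0 in WT 1 alone.

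Among the somatic ADAMs, Adam15, a widely expressed protease that also binds integrins, had 0, 30.9 and 28 in WT, 55.7, 35.4 and 58.2 in Het, and 35.2, 50.3 and 46.5 in KO. The WT animals were below all Het and all KO animals. The log2 fold change was 2.19 in KO against WT (SE 1.35, 95% interval -1.07 to 5.46, adjusted p = 0.638) and 2.35 in Het against WT (SE 1.36, adjusted p = 0.779), and 0.55 and 0.71 without WT animal 1, where the gene is at 0. On the recovered reads the values were 1.18 and 1.35 with DESeq2 and 1.16 and 1.33 with edgeR, and with a pseudocount of 5 they were 1.43 and 1.57. Adam10, the sheddase that cuts Notch and cadherins, had 32.2, 63.7 and 62.8 in WT, 77.5, 60.5 and 51.9 in Het, and 85, 84.2 and 54.5 in KO. KO animal 3 lay below 2 of the WT animals, and the KO against WT log2 fold change was 0.52 (SE 0.36, adjusted p = 0.643), or 0.21 without WT animal 1. Adam8, known from leukocytes, had 8.67, 12.5 and 19.3 in WT, 35.9, 13.0 and 21.2 in Het, and 17.2, 35.8 and 16.1 in KO, with log2 fold changes of 0.70 in both KO against WT (SE 0.47, adjusted p = 0.643) and Het against WT (SE 0.51, adjusted p = 0.779). Without KO animal 2 the first was 0.35, and without Het animal 1 the second was 0.35. The groups overlapped, and the 5 macrophage markers summed to 119 to 188 in WT, 102 to 190 in Het and 131 to 155 in KO.

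Adam11 had 49.5, 15.4 and 27.0 in WT, 18, 21.4 and 40.2 in Het, and 21.5, 36.8 and 25.9 in KO. Adam22 ranged from 5.79 to 27.4 and Adam23 from 4.82 to 19.3 over the 9 animals. In these 3 genes, the catalytically inactive receptors for LGI proteins, the genotypes overlapped, with KO against WT log2 fold changes of -0.01, 0.41 and 0.67.

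The 7 members under the filter were Adam19 (highest value 14.5), Adam9 (10.4), Adam12 (9.31), Adam33 (7.43), Adam17, Adam7 and Adam28. Adam17, the tumour necrosis factor sheddase, had 57.0 in WT animal 1 and 0.859 to 4.72 in the other 8 animals. Its annotated 3′ end overlaps Iah1 on the opposite strand, and 56.3% of the 50-base words in its last 500 bases occur in Iah1 transcripts read in reverse. Iah1 had 50.8, 83.0 and 53.1 in WT, 68.0, 83.8 and 60.3 in Het, and 61.8, 78.4 and 85.8 in KO, with WT animal 1 the lowest of the 9. Whether strand was used in counting is not given in the sources used here, so reads of Adam17 and Iah1 cannot be told apart with certainty. Adam7 and Adam28, which are made in the epididymis, were at 0 in all 9 animals, which allows up to 2.58 to 3.71 normalized reads. Of 6 epididymis markers, 5 (Lcn5, Lcn8, Lcn9, Ovch2 and Rnase9) were also at 0 in all animals, and Crisp1 reached 7.72.

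The heterozygotes lacked 1 intact Pfn3 allele only. In Het against WT, 0 of the 24 tested ADAM genes were called with limma (0% of 14216 genes), and 0 were higher (1.46%) or lower (1.89%) at an unadjusted p under 0.05, as with edgeR and DESeq2. Adam15 was the only member with all Het above all WT animals (6.76% of all genes), and 0 members had all Het animals below (6.49%). The median log2 fold change was 0.28 over the members and 0.01 over all genes, and 13 of the 18 testis group genes were above 0 (median 0.11). That median was 0.26 without Het animal 2, 0.22 without WT animal 2 and 0.07 without WT animal 1. The largest testis group values above 0 were 0.51 for Adam39 and 0.45 for Adam24 (SE 0.27, 95% interval -0.20 to 1.10, adjusted p = 0.779), the latter 0.23 without WT animal 1. Adam30 (-0.83), Adam5 (-0.41), Adam6a (-0.18, SE 0.30, adjusted p = 0.853), Adam21 (-0.09) and Adam32 (-0.08) were below 0.

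KO and Het differ by the remaining Pfn3 allele. With limma, 0 of 24 ADAM genes were called in KO against Het (0.0558% of 14343 genes). Adam1b was the only member lower at an unadjusted p under 0.05 (1.82% of all genes) and 0 members were higher (1.74%), and edgeR also gave Adam1b and DESeq2 gave Adam1b and Adam18. The log2 fold change of Adam1b was -0.44 (SE 0.16, 95% interval -0.84 to -0.05, adjusted p = 0.973). Adam1b, Adam18 and Adam6a had all KO below all Het animals (4.9% of all genes), and 0 members had all KO above (5.12%). Adam18 had a log2 fold change of -0.31 (SE 0.13, adjusted p = 0.973) and Adam6a of -0.34 (SE 0.21, adjusted p = 0.973).

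The sign was shared across the testis group in this comparison. Of its 18 genes, 17 had a log2 fold change below 0 in KO against Het (median -0.36), where 50.3% of all genes did (median -0.003), and Adam30 was the exception. Adam20 had -0.48 (SE 0.25, adjusted p = 0.973). In the somatic group 3 of 6 were below 0 (median 0.04), with 0.22 for Adam10 (SE 0.27, adjusted p = 0.973) and 0.13 for Adam11 (SE 0.39, adjusted p = 0.992). Without KO animal 2 the testis group had 12 of 18 below 0 with a median of -0.12, and without Het animal 1 it had 17 of 18 with a median of -0.27.

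The summed value of the 31 ADAM genes was 11528, 10059 and 9555 in WT, 9668, 9474 and 9665 in Het, and 8755, 6489 and 9177 in KO. The 3 KO animals were below all others and KO animal 2 was lowest. Members without an intact zinc site summed to 10437, 8745 and 8235 in WT, 7911, 8263 and 8302 in Het, and 7503, 5460 and 7778 in KO. Members with an intact site summed to 1091, 1314 and 1320 in WT, 1757, 1211 and 1363 in Het, and 1251, 1029 and 1399 in KO. KO lay below WT for the first sum, which Adam5 leads, and the genotypes overlapped for the second. As shares of the reads on genes, KO (0.238%, 0.198% and 0.251%) and WT (0.276%, 0.246% and 0.242%) overlapped.

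**Figure D5:**
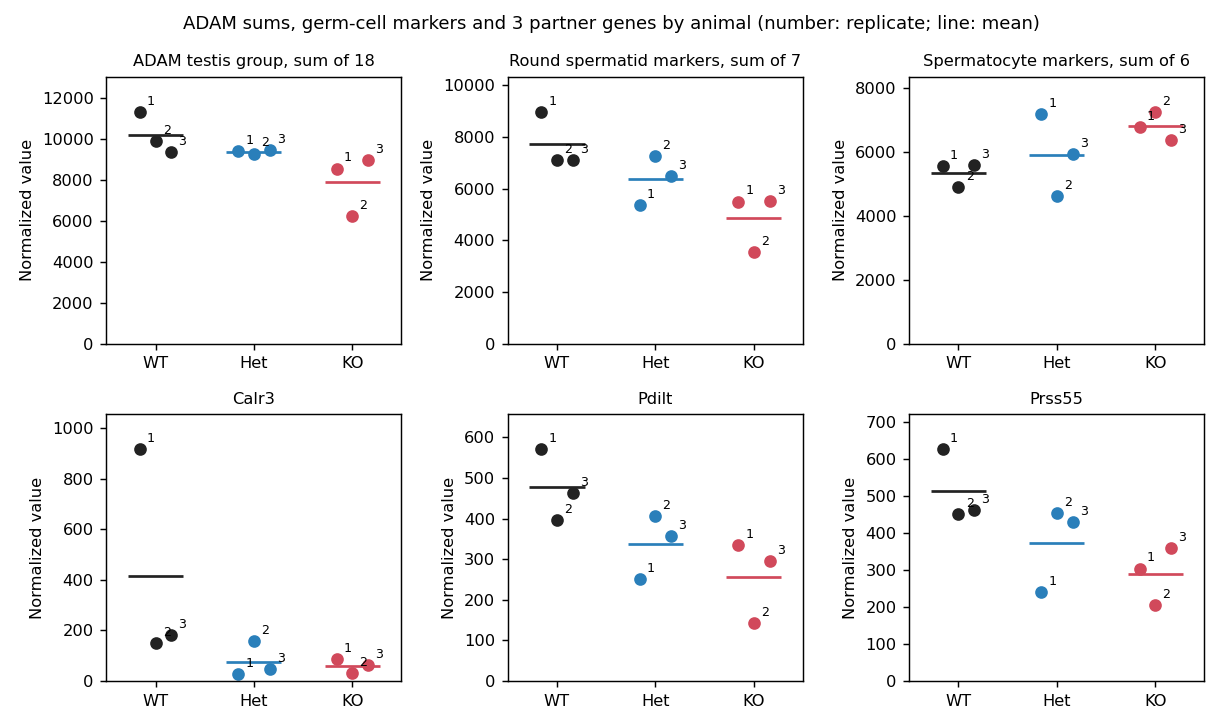
Summed normalized values of the 18 testis group ADAM genes, of 7 round spermatid markers and of 6 spermatocyte markers, and the values of Calr3, Pdilt and Prss55, by genotype (points are animals numbered by replicate, lines are means, axes start at 0). KO 2 is the lowest animal for both the ADAM sum (6228) and the round spermatid sum (3548). The 3 partner genes have all KO animals below all WT animals, as do 10.5% of all genes.

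The genes that fold, mature and display sperm ADAM proteins were examined beside them, as 15 germ-cell factors of which 14 were in the table and tested. None was called in any comparison with limma. In KO against WT, 3 of the 14 (Calr3, Pdilt and Prss55) were lower and 0 higher at an unadjusted p under 0.05, beside the 5.03% and 3.04% of all genes, with 8 of 14 below 0 and a median log2 fold change of -0.16. Calr3 encodes calsperin, the germ-cell calreticulin needed for ADAM3, and had 917, 149 and 182 in WT, 25.5, 156 and 47.6 in Het, and 86.7, 31.9 and 62.6 in KO. All KO animals lay below all WT animals (10.5% of all genes), Het animal 2 overlapped WT, and WT animal 1 was far above the rest. Its log2 fold change was -2.37 in KO against WT (SE 0.76, adjusted p = 0.610) and -2.32 in Het against WT (SE 0.92, adjusted p = 0.779).

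Pdilt, a testis protein disulfide isomerase that works with calsperin, had 571, 396 and 463 in WT, 251, 407 and 357 in Het, and 334, 142 and 295 in KO. Prss55, a sperm serine protease needed for mature ADAM3, had 625, 450 and 461 in WT, 239, 453 and 429 in Het, and 303, 205 and 358 in KO. Both had all KO animals below all WT animals (10.5% of all genes). Their KO against WT log2 fold changes were -0.96 (SE 0.37) and -0.84 (SE 0.27), both at an adjusted p of 0.610. The round spermatid sum was lowest in the same animal, KO animal 2, as given above, and the part of these markers in these values was not tested.

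The most abundant partners were Clgn, Cmtm2b and Lypd4. Clgn is the chaperone calmegin that holds fertilin and ADAM3 precursors. It had 1787, 1892 and 2266 in WT, 2086, 1850 and 1870 in Het, and 1762, 1730 and 1755 in KO. Its log2 fold change was -0.17 in KO against WT (SE 0.16, adjusted p = 0.677), and its KO animals were all below the WT animals (10.5% of all genes). Cmtm2b, which stabilizes ADAM3 on sperm, had 83.0 in WT animal 1 and 1324 to 2336 in the other 8 animals, and its KO against WT log2 fold change was 1.20 (SE 1.25, adjusted p = 0.709). Lypd4, a GPI-anchored sperm protein, had 1066, 1413 and 1340 in WT, 972, 1363 and 1157 in Het, and 947, 928 and 1047 in KO. Its KO animals were all below the WT animals (10.5% of all genes), with a log2 fold change of -0.38 (SE 0.18, adjusted p = 0.613).

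In Het against WT, Tpst2, a tyrosine sulfotransferase, was the only factor higher at an unadjusted p under 0.05 (1 of 14, beside 1.46% of all genes) and Calr3 the only one lower (1 of 14, beside 1.89%). Tpst2 had 0, 1.93 and 24.1 in WT, 37.8, 33.5 and 40.2 in Het, and 1.72, 59.0 and 36.6 in KO. Its Het animals were all above the WT animals (6.76% of all genes), with a log2 fold change of 3.18 (SE 1.16, adjusted p = 0.779). In KO against Het, Ace, whose testis isoform is needed for ADAM3 on sperm, was the only factor past that limit (1 of 14 lower, beside 1.82% of all genes, and 0 higher, beside 1.74%). It had 35.9, 132 and 165 in WT, 232, 198 and 163 in Het, and 112, 123 and 59.0 in KO. Its KO animals were all below the Het animals (4.9% of all genes), with a log2 fold change of -1.06 (SE 0.32, adjusted p = 0.973).

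Of 5 proprotein convertases, 4 were in the table, at most 2 passed the filter in a comparison, and 0 were called with limma. Pcsk4, the sperm enzyme that trims ADAM precursors, had 561, 269 and 284 in WT, 282, 348 and 351 in Het, and 221, 270 and 280 in KO, and the KO against WT log2 fold change was -0.45 (SE 0.33, adjusted p = 0.648). Pcsk7, a widely expressed convertase, had 38.4, 1.93 and 69.5 in WT, 45.4, 74.5 and 60.3 in Het, and 3.44, 3.87 and 6.26 in KO, so that WT animal 2 was as low as the KO animals. In KO against Het its log2 fold change was -3.47 (SE 0.35, adjusted p = 0.0746), and it did not pass the filter in KO against WT. Furin, the general convertase, was at 0 in 5 animals and at 49.2, 61.4 and 90.0 in WT animal 3, Het animal 3 and KO animal 2.

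The inhibitors and regulators of ADAM proteases, 14 genes of which 10 were tested in each comparison, included 0 called genes. In KO against WT 5 of 10 were below 0 (median 0.001) and 0 passed an unadjusted p under 0.05. Timp2, a metalloprotease inhibitor, was the most abundant (mean ± SD of 834 ± 197 in WT, 782 ± 36.9 in Het and 869 ± 324 in KO), with its highest value in KO animal 2 (1238). Frmd8, which stabilizes the sheddase complex of ADAM17, had 228 ± 21.5, 209 ± 20.1 and 226 ± 9.55, and Timp3, an inhibitor of ADAM10 and ADAM17, 157 ± 13.1, 183 ± 47.6 and 173 ± 26.1. Tspan5, a tetraspanin that escorts ADAM10, had 79.2, 196 and 172 in WT, 59.5, 115 and 41.3 in Het, and 161, 209 and 173 in KO. All KO animals lay above all Het animals (5.12% of all genes), with a log2 fold change of 1.44 in KO against Het (SE 0.38, adjusted p = 0.973). In this comparison 1 of the 10 regulators, Tspan5, was higher at an unadjusted p under 0.05 with limma (1.74% of all genes), and 0 were lower (1.82%). Adam10 itself differed by 0.22.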

How the data were processed

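Testis RNA of 3 WT, 3 Het and 3 KO mice was sequenced as 50-bp QuantSeq 3′ reads. The authors trimmed reads (Trim Galore 0.4.5), mapped them to GRCm38 (HISAT2 2.1), built and quantified transcripts with StringTie 1.3.3 and left out pseudogenes. The deposited signal table holds, with no length correction, each count over a size factor of its library. Dividing by the value of 1 read gave whole numbers (tolerance 0.001) for 100% of the values above 0 in every library, so the counts, called reads here, were recovered. The paper prepared its gene-level counts with a script of the StringTie package, and whether 1 count is 1 observed read was not tested. The count test on these reads called 5 genes in KO against WT with edgeR 4.0.16 and 100 with DESeq2 1.42.0, the authors' tool in another version. Of the 31 ADAM genes, 25 were counted on loci of the authors' merged assembly and 6 on annotated genes. Groups came from the sample labels, and 0 per-sample columns were left unused. No source says that the animals of a group came from separate litters. The p-values set group differences against the spread between these animals and treat the animals as independent.

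The main test was limma 3.58.1 (eBayes with a trend, two-sided) in R 4.3.3 on log2(value + 1), fitted on the 6 animals of each comparison over all genes that reached 10 in 3 or more of them, with Benjamini-Hochberg adjustment over all genes tested. The pseudocount pulls fold changes of low genes towards 0, but where 1 animal of a group is at or near 0, as for Adam15, the mean of logs gives larger values than the count-based fits. Called genes needed an adjusted p under 0.05 and a log2 fold change over 1.5, the study's cutoffs. The functions were tested on simulated data. Named in full were the 10 ADAM genes highest in WT, up to 3 per direction and comparison with the lowest p, Pfn3, and partner genes at an unadjusted p under 0.05 or among the 3 highest of their list. The members, groups, partner lists and markers were chosen with earlier results of these data known. Alternatives were other tests, scalings, filters and pseudocounts, all 9 samples in 1 fit, a replicate block and each animal left out. CPM scaling (library totals) in the comparison of KO with WT was chosen after seeing the data. Coding sequences came from GENCODE transcripts on GRCm38, aligned with MAFFT 7.526, and promoter windows from RefSeq (GRCm38.p6). Other steps used pandas 2.3.3 and numpy 2.4.6 in Python 3.11.15, with matplotlib 3.10.9 for the plots.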

Additional observations from a re-analysis of the deposited data

How the results depend on the processing

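The count of called ADAM genes was 0 in all 3 comparisons under every alternative run. The count at an unadjusted p under 0.05 stayed at 0 to 1 with an animal left out, and was 2 with DESeq2 in KO against Het and 0 there with all 9 samples in 1 fit. Genes called over the whole table varied more. In KO against WT they numbered 5, but 100 with DESeq2, 3 with all 9 samples in 1 fit, and 0 to 49 with an animal left out, the highest without WT animal 1 and 0 without WT animal 2, WT animal 3 or KO animal 2. In Het against WT they numbered 0, but 31 with DESeq2, 1 with TMM factors, 3 with no filter, with a minimum of 5 or with all 9 samples, 2 with a pseudocount of 5, and 0 to 3 with an animal left out. In KO against Het they numbered 8, but 38 with DESeq2, 4 with all 9 samples, and 0 to 39 with an animal left out, the highest without Het animal 2 and 0 without Het animal 3 or KO animal 1. Same-numbered animals correlated at -0.140 to 0.188 in their deviations from the group means, and differently numbered animals at -0.242 to 0.188. With 3 animals a group, these values cannot show whether the replicate numbers pair the animals. With the replicate block, 0 genes were called in all comparisons, 1 ADAM gene (Adam30) passed an unadjusted p under 0.05 in Het against WT and 0 in KO against Het.

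The summed ADAM value of KO over WT was -0.35 on the log2 scale and -0.15 with CPM scaling, and that of Het over WT was -0.11 and 0.047. Above the filter were 24 ADAM genes, and 25 with TMM factors or CPM scaling. CPM scaling shifted the median of all genes to 0.22 in KO against WT, and turned the KO against WT log2 fold changes of Adam1b (0.10) and Adam20 (0.046). With an animal left out, these KO against WT values changed sign over ranges of -0.42 to 0.067 for Adam1b, -0.084 to 0.33 for Adam2, -0.40 to 0.055 for Adam20, -0.17 to 0.27 for Adam24 and -0.34 to 0.69 for Adam30, as did Adam6a in Het against WT (-0.36 to 0.12) and Adam11 in KO against Het (-0.10 to 0.46). The causes were not tested. Of 388 recomputed fold changes of 25 named results, 370 kept their sign and stayed uncalled. With 3 animals a genotype, these data do not exclude differences that lie within the 95% interval of each gene.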
